A study of Bos taurus with 15 samples.

Results

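Branched-chain amino acid breakdown was described with the genes of its enzymes that had a row, by gene name, in all 6 deposited comparison tables. Of 10 listed genes, 9 were found among the 13896 genes of the tables: BCAT1, BCAT2, BCKDHA, BCKDHB, DBT, BCKDK, IVD, MCCC1 and PCCA. MCCC2, the partner of MCCC1, had no row. Subcutaneous adipose tissue was taken at the dewlap of fasted primiparous Holstein cows, and total RNA was sequenced in 15 libraries, 3 in each of 5 groups. The first group was sampled one month before calving (-4 weeks peripartum, wkpp), before the diets began. The HE groups were fed a high energy diet and sampled at 1 and 16 wkpp, and the LE groups were fed a low energy diet and sampled at the same times. By the study's methods, the sequenced cows had the most extreme energy balance at 1 wkpp, and its text compares cows with moderate and severe negative energy balance, whereas the labels give the diet alone. All groups shared breed, parity and depot. The 3 libraries before calving were the reference of both diets, so diet was not separated at that time, and calving, lactation and diet changed together between -4 and 1 wkpp. Each cow was biopsied at all 3 times by the study's methods, so libraries of different times may come from the same cows; they were fitted as independent.

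Leucine, isoleucine and valine are essential amino acids that adipose tissue can oxidise. A branched-chain aminotransferase (BCAT1 in the cytosol, BCAT2 in mitochondria) moves the amino group to 2-oxoglutarate, and the branched-chain keto acid dehydrogenase complex then decarboxylates the keto acid in a step that cannot be reversed. BCKDHA and BCKDHB form the E1 decarboxylase of that complex, DBT its E2 transacylase core, and the kinase BCKDK inactivates E1 by phosphorylation. IVD and MCCC1 act further down the leucine branch, and PCCA is a subunit of propionyl-CoA carboxylase, which takes up the propionyl-CoA made from isoleucine and valine.

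The tables held means over 6 libraries, from which the read count of each gene in each library was recovered, separately for exonic reads and for those on the whole gene, introns included. The levels below are normalised counts (reads divided by a size factor of the library). They were not divided by gene length and were not compared between genes. The libraries of a group are named 1 to 3 by depth, and this number does not stand for a cow. The recovered exonic gene reads were 7562700 to 12985860 per library before calving, 10787574 to 14135424 in LE and 2010723 to 7364573 in HE. Spike-in reads, over 86 synthetic RNAs, were 0.498 to 1.53 per 100 exonic gene reads before calving, 0.187 to 1.57 in LE and 2.93 to 23.8 in HE. The HE libraries thus stood apart from the others in both measures. By the study's own sequencing statistics, total reads per library were alike between groups. A smaller percentage of them aligned in its cows with moderate negative energy balance. A gene was called where limma gave an adjusted p below 0.01 in the exon and in the whole gene analysis with the same sign. Differences are log2(normalised count + 1), with standard error (SE) and Benjamini-Hochberg adjustment over all genes tested.

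None of the 9 genes was called in any of the 6 comparisons (0 genes in each), against 0 to 4.39% of all genes tested. In HE cows, however, BCAT2, DBT and MCCC1 fell from -4 to 1 wkpp in the exon analysis (3 of 9 genes, each adjusted p below the threshold, where 16.7% of all genes passed and 7.85% passed as lower), with whole gene adjusted p-values just above it. In LE cows, BCAT2 fell in the exon analysis (1 of 9, where 0.724% of all genes passed). Neither the E1 subunit BCKDHA nor the kinase BCKDK showed such a difference, and none of the 9 passed either test between 1 and 16 wkpp or between the diets. The study's own analysis with DESeq2 reported differentially expressed genes in each of the 6 comparisons, also where limma called none here.

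BCAT2, the mitochondrial aminotransferase, was at 593, 557 and 607 normalised exonic reads before calving. It was at 138, 189 and 165 in HE and at 226, 201 and 174 in LE at 1 wkpp. The values at 16 wkpp were 139.8, 121 and 195 in HE and 157, 146 and 252 in LE. All 12 libraries after calving lay below all 3 libraries before calving, and the diets overlapped at both times. The exonic difference from -4 to 1 wkpp was -1.84 (SE 0.22) in HE, a level 3.58-fold lower, with an adjusted p of 0.000445 by limma. The whole gene difference was -1.31 (SE 0.22, limma adjusted p 0.0137). In LE, the exonic difference was -1.55 (SE 0.17), or 2.92-fold lower, with an adjusted p of 0.00365 by limma, and the whole gene difference was -1.11 (SE 0.22, limma adjusted p 0.0699). From 1 to 16 wkpp, it differed by -0.13 (SE 0.29) in HE and by -0.15 (SE 0.24) in LE on exons, within the spread of the libraries.

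BCAT1, the cytosolic aminotransferase, had few exonic reads. It was at 19.0, 7.33 and 13.1 before calving, at 19.8, 10.8 and 25.7 in HE and at 25.4, 27.4 and 27.4 in LE at 1 wkpp. At 16 wkpp it was at 24.4, 30.8 and 10.8 in HE and at 62.9, 27.5 and 39.4 in LE. The shallowest values rested on 4 reads each, in library 2 of HE at 1 wkpp and library 3 of HE at 16 wkpp, and on 7 reads in library 3 of HE at 1 wkpp. The LE libraries at 1 wkpp lay above those before calving and below those at 16 wkpp, but the differences of 1.06 (SE 0.43) and 0.60 (SE 0.36) had limma adjusted p-values of 0.294 and 0.706. On the whole gene it was at 161, 619.9 and 767 in HE at 1 wkpp, where library 1 was far below the others, against 94.9, 60.5 and 304 before calving.

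**Figure D1:**
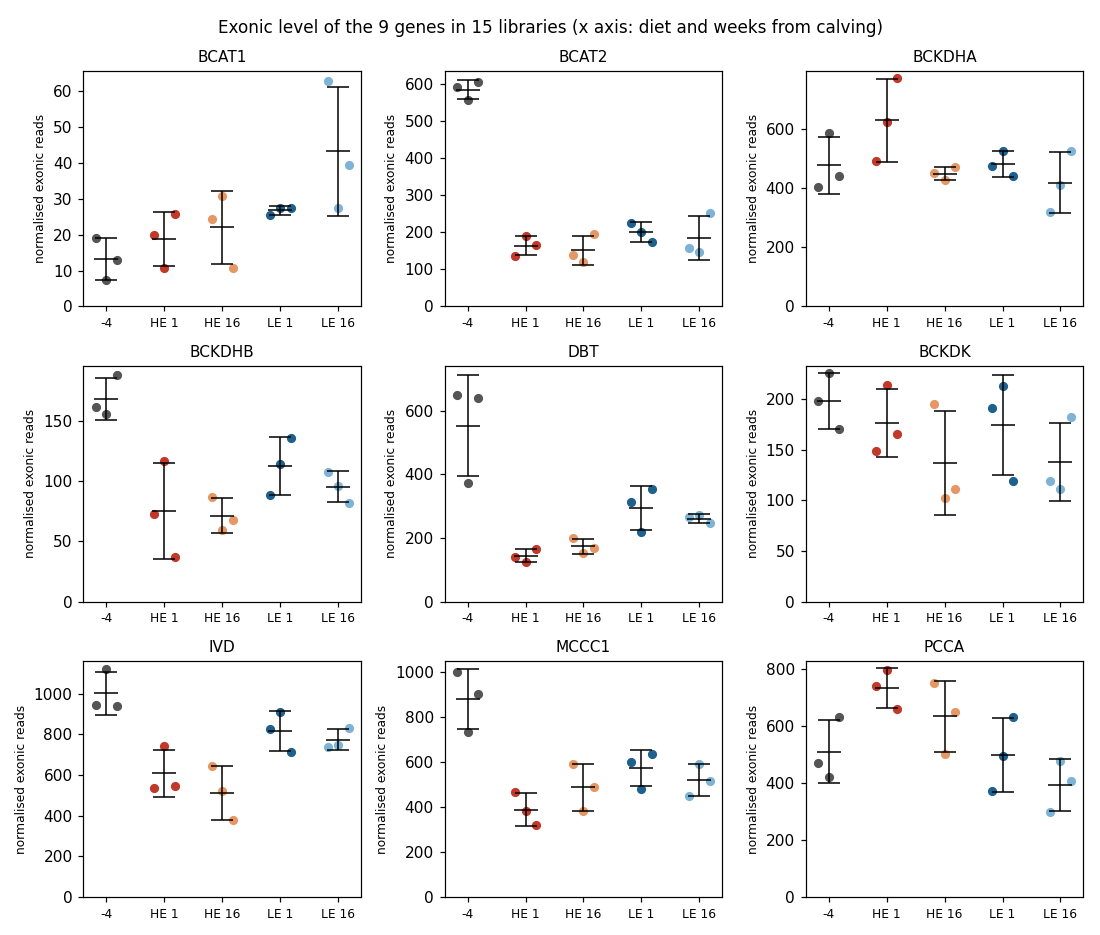
Normalised exonic reads of the 9 genes (y axis, linear from 0) in the libraries before calving (-4) and in HE and LE cows at 1 and 16 wkpp (x axis); points are libraries in order of depth, long dashes the mean and bars ± SD (n = 3). BCAT2 lies between 557 and 607 before calving and between 121 and 252 in every library after calving.

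In the dehydrogenase complex, the E2 gene DBT was at 650.4, 371 and 639 normalised exonic reads before calving and at 142, 124 and 165 in HE at 1 wkpp. In LE at 1 wkpp it was at 314, 219 and 354. The levels at 16 wkpp were 200.5, 154 and 168 in HE and 265, 272 and 246 in LE. Every library after calving was below the lowest library before it, and the LE libraries were above the HE libraries at both times. The exonic difference from -4 to 1 wkpp was -1.90 (SE 0.28) in HE, 3.74-fold lower, with an adjusted p of 0.000991 by limma. The whole gene difference was -1.30 (SE 0.21, limma adjusted p 0.0129). In LE it was -0.89 (SE 0.27) on exons and -0.75 (SE 0.19) on the whole gene, and neither passed (limma adjusted p 0.163 and 0.135).

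Of the E1 genes, BCKDHA was at 405, 588 and 442 before calving, at 493, 624 and 776 in HE and at 475, 528 and 441 in LE at 1 wkpp. Its groups overlapped, with differences of 0.39 (SE 0.25) in HE and 0.02 (SE 0.19) in LE. In HE it lay at 451, 429 and 471 at 16 wkpp, below all libraries at 1 wkpp, with a difference of -0.46 (SE 0.23) and a limma adjusted p of 0.425. In LE at 16 wkpp it was at 321, 412 and 526.

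BCKDHB was at 162, 155 and 188 exonic reads before calving, at 73.0, 116 and 36.8 in HE and at 88.1, 114 and 136 in LE at 1 wkpp. At 16 wkpp it was at 87.0, 59.1 and 67.7 in HE and at 108, 96.1 and 81.9 in LE. Every library after calving was below those before it. The exonic difference from -4 to 1 wkpp in HE was -1.29 (SE 0.40, limma adjusted p 0.0323), whereas the whole gene difference was -0.10 (SE 0.32, limma adjusted p 0.845). In LE it was -0.59 (SE 0.22) on exons, with a limma adjusted p of 0.253. The kinase BCKDK lay between 103 and 225 in all 15 libraries, and its groups overlapped in each of the 6 comparisons.

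Within a library, the ratio of reads does not depend on the size factor. DBT had 1.61, 0.631 and 1.45 exonic reads per read of BCKDHA before calving and 0.288, 0.199 and 0.213 in HE at 1 wkpp. The ratio was 0.661, 0.415 and 0.803 in LE at 1 wkpp. At 16 wkpp it was 0.445, 0.359 and 0.356 in HE and 0.825, 0.661 and 0.469 in LE. The HE ratios lay below every ratio before calving, and library 2 before calving overlapped the LE libraries. BCAT2 had 2.99, 2.47 and 3.57 reads per read of the kinase BCKDK before calving, and between 0.715 and 1.76 in the libraries after calving. MCCC1 had 0.655 to 1.06 reads per read of IVD before calving and 0.515 to 1.3 after it, with overlap between the groups before calving and at 1 wkpp in both diets. These ratios were not tested.

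Of the leucine branch, MCCC1, the biotin-binding subunit of methylcrotonyl-CoA carboxylase, was at 1001, 736 and 905 normalised exonic reads before calving. It was at 465, 381 and 319.7 in HE and at 602, 482 and 637 in LE at 1 wkpp. At 16 wkpp it was at 591, 383 and 490.1 in HE and at 448, 591 and 517 in LE. All libraries after calving were below those before it. The exonic difference from -4 to 1 wkpp in HE was -1.18 (SE 0.23), 2.27-fold lower, with an adjusted p of 0.00389 by limma. The whole gene difference was -1.10 (SE 0.19, limma adjusted p 0.0144). The exonic result depended on single libraries: it passed in 2 of 6 fits that left out 1 library (without library 2 before calving or HE library 1), with differences of -1.32 to -1.05 over these fits. In LE it was -0.62 (SE 0.18) on exons and -0.74 (SE 0.16) on the whole gene, with limma adjusted p-values of 0.148 and 0.0998.

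IVD, which oxidises isovaleryl-CoA one step before, was at 943, 1123 and 938 exonic reads before calving, at 535, 740.3 and 548 in HE and at 824, 910.4 and 713 in LE at 1 wkpp. By 16 wkpp it was at 641, 522 and 376 in HE and at 739, 749 and 832 in LE. Both diets lay below the libraries before calving at 1 wkpp. The exonic difference was -0.73 (SE 0.22) in HE, with a limma adjusted p of 0.0276, and -0.30 (SE 0.16) in LE, with a limma adjusted p of 0.451.

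PCCA differed in sign between the analyses. It was at 471, 422 and 632 exonic reads before calving, at 740.2, 797 and 658 in HE and at 371, 492 and 630.1 in LE at 1 wkpp. On the whole gene it was at 7166, 7247 and 7651 before calving, at 5105, 5723 and 5027 in HE and at 6093, 7042 and 7763 in LE at 1 wkpp. The HE libraries thus lay above those before calving on exons and below them on the whole gene. The differences were 0.54 (SE 0.23) and -0.48 (SE 0.16), with limma adjusted p-values of 0.0955 and 0.113. At 16 wkpp, LE minus HE was -0.69 (SE 0.23) on exons and 0.55 (SE 0.19) on the whole gene, with limma adjusted p-values of 0.0506 and 0.0885.

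**Figure D2:**
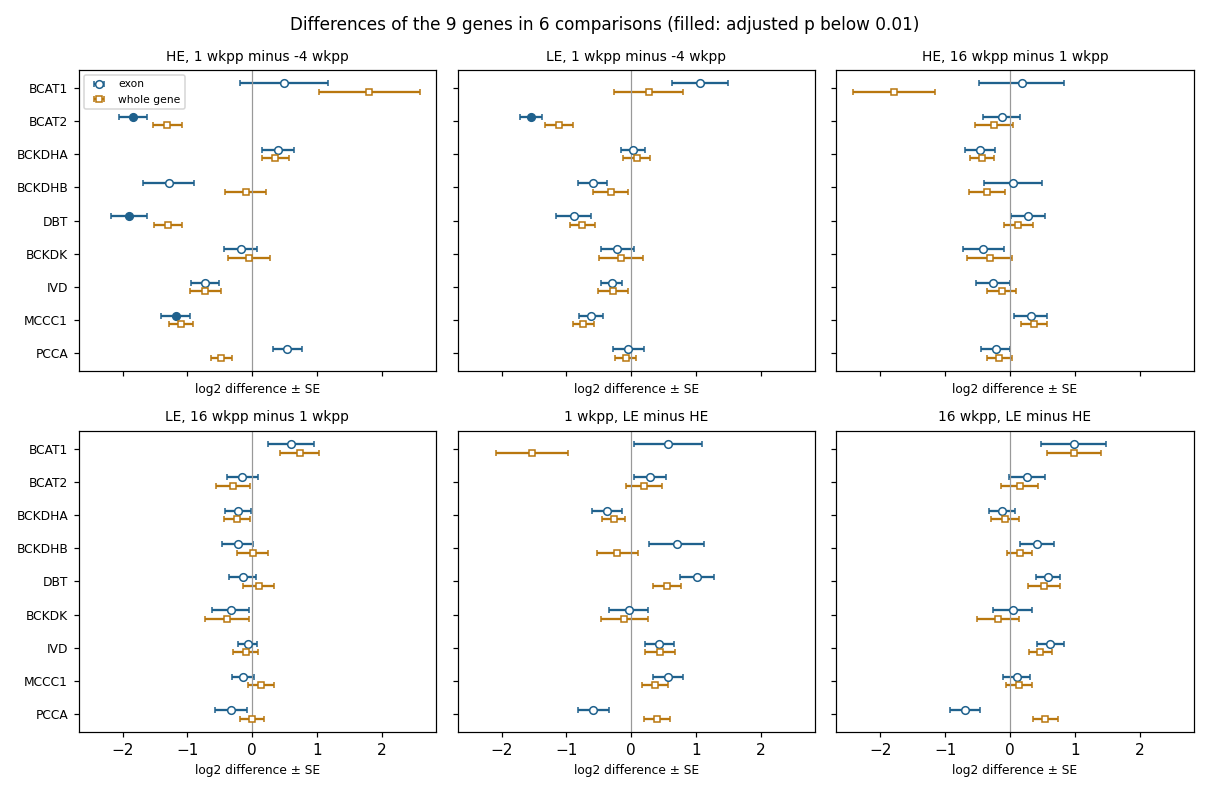
Log2 difference ± SE (x axis) of the 9 genes (y axis) in the 6 comparisons (panels), for exonic reads (circles) and whole gene reads (squares); filled symbols have an adjusted p below 0.01. The filled symbols are the exonic values of BCAT2, DBT and MCCC1 in HE (-1.84, -1.90 and -1.18) and of BCAT2 in LE (-1.55) from -4 to 1 wkpp, and PCCA has opposite signs in HE.

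The share of a gene's reads that fell on exons showed the same contrast. In PCCA, 6.37, 6.34 and 6.74% of the whole gene reads were exonic before calving, against 14.9, 14.6 and 12.9% in HE and 6.10, 7.33 and 7.42% in LE at 1 wkpp. At 16 wkpp the share was 13.6, 13.7 and 17.3% in HE and 3.78, 6.02 and 6.84% in LE. All 6 HE libraries lay above the 9 others. IVD had a higher share in HE too, with 79.7 to 82.8% before calving, 84.7 to 87.6% in HE and 82.7 to 84.1% in LE at 1 wkpp. Thus 2 of 9 genes (IVD and PCCA) had higher shares without overlap in HE at 1 wkpp than before calving, against 22.7% of all genes. In LE, the same 2 had lower shares than in HE at 1 wkpp, against 24.2%, and PCCA and BCKDHA at 16 wkpp, against 39.3%, so that PCCA was one of many. BCAT1 and DBT had higher shares in LE at 1 wkpp (2 of 9, background 8.1%), and 0 of 9 at 16 wkpp (background 2.95%). The share in DBT went the other way, from 34.3 to 40.8% before calving to 24.3 to 31.4% in HE at 1 wkpp, and that in BCAT2 from 73.0 to 86.1% to 52.2 to 66.2%. These were 2 of 9 with lower shares without overlap, against 7.16% of all genes. The median share of all genes was 43.4 to 61.0% before calving, 53.7 to 56.3% in HE and 50.9 to 58.2% in LE at 1 wkpp. At 16 wkpp it was higher in HE, with 55.6 to 69.7%, against 47.8 to 55.6% in LE.

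**Figure D3:**
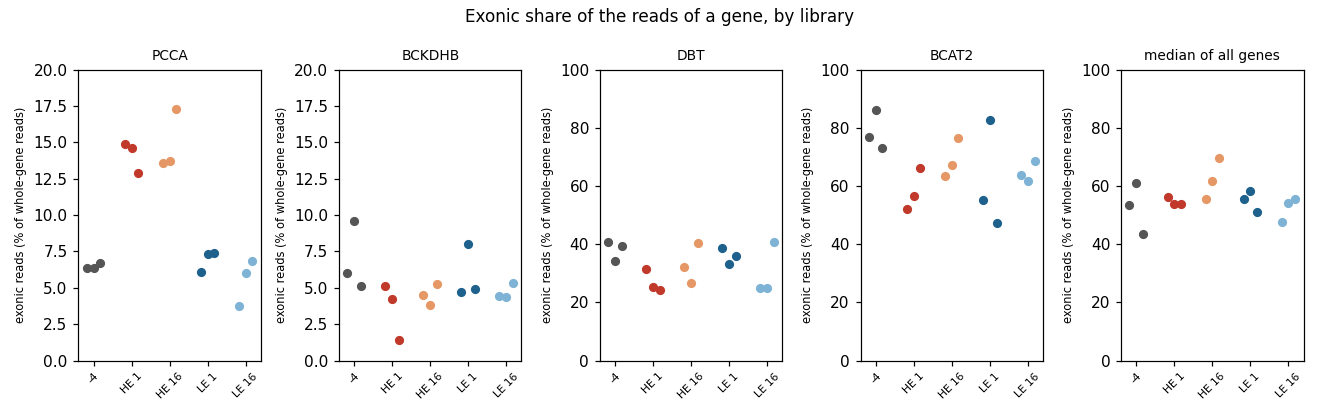
Exonic reads as a percent of whole gene reads (y axis; 0 to 20% for PCCA and BCKDHB, 0 to 100% elsewhere) in each library (points) of the groups before calving and in HE and LE cows (x axis), with the median of all genes with at least 20 whole gene reads in the last panel. PCCA lies at 12.9 to 17.3% in HE and at 3.78 to 7.42% in the other libraries.

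The first question was what changed from before calving to early lactation in each diet. In HE, 0 of 9 genes were called, against 2.82% of all genes tested. At an unadjusted limma p below 0.05, 6 of 9 passed on exons and 5 on the whole gene, against 42% and 26.9% of all genes. limma with voom weights called 0 of 9, among 207 of all genes. On exons alone, 3 of 9 passed as lower, against 7.85% of all genes. Without overlap between the libraries, 5 of 9 were lower on exons (BCAT2, BCKDHB, DBT, IVD and MCCC1), against 22.6% of all genes, and 1 was higher (PCCA), against 23.5%. On the whole gene, 5 of 9 were lower without overlap (BCAT2, DBT, IVD, MCCC1 and PCCA), against 19.2%, and 0 higher, against 18.4%. The median exonic difference was -0.73 for the 9 genes and -0.03 for all genes, and on the whole gene it was -0.48 and 0.12. When all 15 libraries shared one estimate of the spread, BCAT2, DBT and MCCC1 were called (3 of 9) among 1235 genes, in place of 300.

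In LE, 0 of 9 genes were called, against 0.0879% of all genes. At an unadjusted limma p below 0.05, 5 of 9 passed on exons and 3 on the whole gene, against 15% and 11.5% of all genes, and voom called 0 of 9, among 4 of all genes. On exons alone, 1 of 9 passed as lower, against 0.647% of all genes. BCAT2, BCKDHB, DBT, IVD and MCCC1 were lower on exons without overlap (5 of 9), against 10.4%, and 1 was higher (BCAT1), against 9.46%. On the whole gene, BCAT2, DBT and MCCC1 were lower without overlap (3 of 9), against 7.63%, and 0 were higher, against 8.73%. The median exonic difference was -0.30 for the 9 genes and 0.03 for all genes. Both diets were set against the same libraries before calving, so the values of the diets are not independent of each other. The exonic result of BCAT2 in LE depended on single libraries: it passed in 1 of 6 fits that left out 1 library (without LE library 2), with exonic differences of -1.64 to -1.45 over these fits.

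The second question was whether the diets differed. At 1 wkpp, 0 of 9 genes were called and 0% of all genes. On exons alone, 0 of 9 passed, against 3.34% of all genes, and voom called no gene at all (0). At an unadjusted limma p below 0.05, 3 of 9 passed on exons and 2 on the whole gene, which is near the 34.5% and 28.8% of all genes. DBT was higher in LE by 1.02 (SE 0.27) on exons and by 0.55 (SE 0.22) on the whole gene, with limma adjusted p-values of 0.031 and 0.151. On exons, DBT and MCCC1 were higher in LE without overlap (2 of 9, background 18.9%) and PCCA lower (1 of 9, background 20.5%). In the whole gene analysis, DBT and PCCA were higher in LE without overlap (2 of 9, background 16.7%) and BCAT1 and BCKDHA lower (2 of 9, background 15.6%). PCCA thus had opposite signs here too, with -0.58 on exons and 0.39 on the whole gene (limma adjusted p 0.122 and 0.222). Since the libraries before calving were shared, this comparison is also the test of whether the change from -4 to 1 wkpp differed between the diets.

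At 16 wkpp, 0 of 9 genes were called, against 4.39% of all genes, and on exons alone 0 of 9 passed, against 11.4%. At an unadjusted limma p below 0.05, 3 of 9 passed on exons and 3 on the whole gene, near the 38.8% and 30.5% of all genes, and voom called 0 of 9, among 355 of all genes. On exons, DBT and IVD were higher in LE without overlap (2 of 9, background 22.1%) and PCCA lower (1 of 9, background 22%). In the whole gene analysis, IVD and PCCA were higher in LE without overlap (2 of 9, background 19.9%) and 0 lower (background 19.3%). The exonic differences were 0.59 (SE 0.19) for DBT and 0.62 (SE 0.21) for IVD, with limma adjusted p-values of 0.0456 and 0.0547. Diet could not be told apart from the number of gene reads and spike-in share in these comparisons, and the percentage of aligned reads was not part of the fits.

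The third question was what changed from 1 to 16 wkpp. In HE and in LE, 0 of 9 genes were called by limma, with 0% of all genes in each, and voom called no gene at all (0). At an unadjusted p below 0.05, 0 passed on exons and 1 on the whole gene in each diet (BCAT1, with -1.79 in HE and 0.74 in LE). The share of all genes was 13.2% on exons and 12.9% on the whole gene in HE, and 7.58% and 7.05% in LE. In HE, 1 of 9 was lower on exons without overlap (BCKDHA, background 9.97% lower and 9.69% higher), and in LE 1 of 9 was higher (BCAT1, background 4.21% higher and 8.04% lower). The counts on the whole gene were the same, with BCKDHA lower in HE (background 9.45% lower and 11.2% higher) and BCAT1 higher in LE (background 3.58% higher and 8.25% lower). The median exonic difference was -0.13 in HE and -0.15 in LE. The difference of this change between the diets, fitted over 12 libraries, was called for 0 of 9 genes and 0% of all genes, with 0 on exons and 1 on the whole gene at an unadjusted limma p below 0.05 (BCAT1, 2.52 with SE 0.76 and a limma adjusted p of 0.606), against 6.05% and 7.75% of all genes.

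The other genes of the pathway were taken from a list of 21 in the tables, with 3 partners of the complex and its transport, 12 later steps, 5 amino acid transporters and the transcription factor KLF15. From -4 to 1 wkpp in HE, 2 of 21 were called, both lower, against 2.82% of all genes. In each of the other 5 comparisons 0 of 21 were called by limma, and in 3 of these no gene was called at all (0%). The study's own analysis reported genes in these comparisons too, with ACAT1 between its energy balance groups at 1 wkpp. ACADSB, the short and branched chain acyl-CoA dehydrogenase of the isoleucine branch, was at 1791, 1594 and 1314 exonic reads before calving. It was at 152, 246 and 209 in HE and at 548, 877 and 423 in LE at 1 wkpp, so that both diets lay below and did not overlap each other. It fell by 2.96 on the log2 scale in HE (SE 0.24, limma adjusted p 8.13e-05) on exons and by 1.31 (SE 0.19, limma adjusted p 0.00951) on the whole gene. ACAT1, the thiolase that ends the isoleucine branch, was at 1822, 1730 and 1747 before calving, at 644, 573 and 617 in HE and at 1091, 1389 and 1458 in LE at 1 wkpp. It fell by 1.53 in HE (SE 0.19, limma adjusted p 0.000483) on exons and by 1.18 (SE 0.17, limma adjusted p 0.00959) on the whole gene. The whole gene values of ACADSB and ACAT1 thus lay just below the threshold of 0.01. With 1 library left out, 1 to 401 of all genes were called in place of 300, and whether these calls held is not given here.

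On exons alone, 9 of the 21 passed in HE, 8 lower and 1 higher, against 16.7% of all genes in either direction and 7.85% lower. The genes were named after their values were seen. The lower ones were all later steps: PCCB, the partner of PCCA, with -1.38 (SE 0.22), MUT, ACADSB, ECHS1, HIBADH, HSD17B10, ACAT1 and OXCT1. ECHS1 was not tested on the whole gene, where it is listed at 0 in every library. The higher one was the transporter SLC43A1, with 1.42 (SE 0.20). In LE, 1 of 21 passed on exons, ECHS1, with -1.28 (SE 0.15), against 0.724% of all genes. The median exonic difference of the 12 later steps was -1.59 in HE and -0.61 in LE, that of the 5 transporters 0.27 and 0.34, and that of all genes -0.03 and 0.03. On the whole gene, where ECHS1 had no value, the medians were smaller for the remaining later steps (-0.88 in HE and -0.24 in LE). They were 0.82 and 0.31 for the transporters, and 0.12 and 0.02 for all genes.

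**Figure D4:**
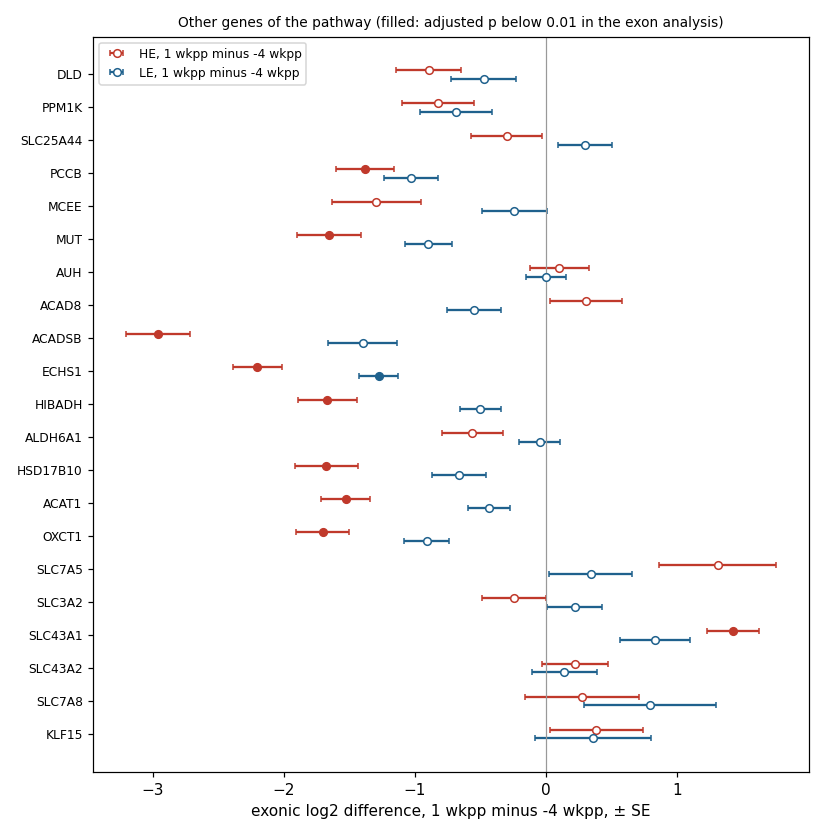
Exonic log2 difference ± SE from -4 to 1 wkpp (x axis) of the 21 other pathway genes (y axis) in HE (red) and LE (blue) cows; filled symbols have an adjusted p below 0.01 on exons. In HE the filled symbols run from -2.96 (ACADSB) to 1.42 (SLC43A1), and in LE only ECHS1 is filled.

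Cell type markers moved with the groups. The summed exonic level of 5 of 7 listed adipocyte markers was 65686 to 67166 before calving, 18769 to 56473 in HE and 71868 to 87564 in LE at 1 wkpp, and 10499 to 41382 in HE and 43336 to 50299 in LE at 16 wkpp. In HE from -4 to 1 wkpp, LPL and CIDEC were called lower (-4.75 and -2.35 on exons), while LIPE had a difference of 0.95 with a limma adjusted p of 0.0188. In LE, these markers went both ways on exons and none passed. LPL and CIDEC differed by -3.21 and -0.55, and FABP4, LIPE and PLIN1 by 1.12, 0.98 and 0.59. Fibroblast and mast cell markers were lower too. Of 4 listed fibroblast markers, only DCN and PDGFRA had recovered counts. Their sum was 53965 to 61435 before calving, 5899 to 10538 in HE and 30972 to 47945 in LE at 1 wkpp, and both were called lower in HE (-2.83 and -2.40 on exons). Of 3 listed mast cell markers, only CPA3 and KIT had recovered counts. Their sum was 2625 to 4299 before calving, 243 to 434 in HE and 1126 to 2965 in LE at 1 wkpp, and both were called lower in HE (-4.93 and -3.12 on exons). At 16 wkpp the fibroblast sum was 8283 to 19337 in HE and 60884 to 68796 in LE, and the mast cell sum 247 to 447 and 1952 to 2407. The sum of 3 of 4 listed macrophage markers was 4541 to 6164 before calving, 1913 to 6448 in HE and 7010 to 10143 in LE at 1 wkpp, and 1820 to 2061 in HE and 9719 to 12989 in LE at 16 wkpp. Of 5 skeletal muscle markers, TNNT3 stood apart, with 54.1 to 338 before calving, 101.1 to 336 in LE and 1170 to 3940 in HE. ACTA1, MYH7, MYH2 and CKM were at 0 to 94.6 in all 15 libraries. From -4 to 1 wkpp in HE, the first 3 did not pass (0.82, -0.16 and 2.22 on exons, limma adjusted p 0.782, 0.926 and 0.326). At 1 wkpp, MYH2 was lower in LE than in HE without overlap in both analyses (whole gene -4.44, limma adjusted p 0.133). The sum of 4 endothelial markers was 15978 to 20687 before calving, 25949 to 51758 in HE and 26215 to 30703 in LE at 1 wkpp. In HE they went both ways on exons, with 1.40 for VWF, 0.69 for PECAM1, 0.45 for CDH5 and -0.77 for CLDN5. Of these VWF alone passed on exons (limma adjusted p 0.00688). The 3 keratinocyte markers summed to at most 257 and 2 of 3 listed mammary epithelial markers to at most 16.2 in any library. No adipocyte, fibroblast, mast cell, macrophage, endothelial or muscle marker in the tables was at 0 throughout a group. Fewer cells of a type and less RNA per cell cannot be told apart in tissue RNA. The part of cell makeup and spike-in share in the lower levels of BCAT2, DBT and MCCC1 was not tested. With all libraries thinned to an equal number of reads, which leaves cell makeup and spike-in share as they were, 3 of the 8 genes that could be tested on exons (BCAT1 was too low) passed in HE, where 17.8% of all genes passed.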

How the data were processed

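Directional total RNA libraries of 15 adipose samples were sequenced. The authors trimmed the reads with cutadapt 1.3, aligned them to bosTau8 with TopHat2, counted them per gene with HTSeq and compared groups with DESeq2. The 6 deposited tables, one per pair of groups, hold for exons and for whole genes the mean of DESeq2-normalised counts over 6 libraries, and the authors' log2 fold changes, their errors, Wald statistics and p-values. These comparison columns were not used, and 0 columns belonged to other samples.

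Each mean is a sum of whole read counts times the step of each library. The steps were read from genes with reads in 1 group, and the counts were solved as whole numbers from the 6 means (15 significant digits, relative error at most 2e-14, Python 3.11.15, sympy 1.14.0). Genes with a mean above 100000 were left out, since several solutions then fit. Counts were recovered for 13652 of 13661 genes with exonic reads and 13341 of 13353 with whole gene reads. The method was tested on simulated data, and 86 of 86 spike-ins, which have no introns, had the same counts in both analyses. Counts on exons did not exceed those on the whole gene for 98.7 to 98.8% of 10776 genes in a library. Libraries could be placed in groups but not matched to samples.

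Counts were divided by median-of-ratios size factors over the 15 libraries. log2(normalised count + 1) was fitted with limma 3.58.1 (R 4.3.3, trend), 6 libraries per comparison, for genes with a mean of at least 10, exons and whole genes apart. Calls needed an adjusted p below 0.01 in both. The p-values measure the spread between libraries; the labels do not number the cows. Read counts carry no molecular identifiers, and counting error alone is larger in the HE libraries, which have fewer gene reads. All 9 members are described, and other pathway genes are named where called or, chosen after their values were seen, where they passed on exons. The members and lists were chosen with earlier results of these data known. Alternatives were another pseudocount, no filter, other scalings, one fit of 15 libraries, voom, each analysis alone, another threshold, leaving out each library and, added after the depths were seen, thinning. One later-step gene of the list is not reported here and is left out of the list counts and medians. The sequences of the genes were not used here.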

Additional observations from a re-analysis of the deposited data

How the results depend on the processing

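No paired analysis was possible because the labels give no cow numbers and the recovered libraries are not matched to samples, although libraries of different times may share cows. From -4 to 1 wkpp in HE, the number of members called was 3 at an adjusted p below 0.05, 3 with all 15 libraries in the fit, 3 with the exon analysis alone, 1 with scaling by total reads, and 0 to 1 when 1 library was left out (1 without library 1 of HE at 1 wkpp). The number of all genes called moved too: from 300 to 1225, 1235, 1797 and 325 under the first 4 settings, in this order, and to 1 to 401 when 1 library was left out. In LE it was 1 member with the exon analysis alone, among 75 genes in place of 9. The number past the threshold on exons, 3 in HE, was 5 at an adjusted p below 0.05, 5 with all 15 libraries and 2 to 3 when 1 library was left out, while the share of all genes went from 16.7% to 31.4%, 26.1% and 5.91 to 20%; in LE, 1 became 0 to 1, with 0 without LE library 1 or 3 or any library before calving, while the share of all genes went from 0.724% to 0 to 3.85%. For LE minus HE it was 1 at 1 wkpp at an adjusted p below 0.05 or with all 15 libraries, and 1 at 16 wkpp at an adjusted p below 0.05, in place of 0, with 17.9%, 16.2% and 25.8% of all genes. The cause was not tested; a common fit has more residual degrees of freedom and a leave-one-out fit has fewer.

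Of 857 alternative values of single members, 803 kept direction and side of the threshold, 41 changed sign, 9 no longer passed and 4 newly passed. None of the 41 was past the threshold in the reported fit. With voom weights, BCKDK changed sign for LE minus HE at 1 wkpp (0.0091) and 16 wkpp (-0.136) and for the difference of changes (-0.14). With thinned libraries, BCKDK changed sign from -4 to 1 wkpp in HE (0.062) and for LE minus HE at 16 wkpp (-0.017), and BCKDHB from 1 to 16 wkpp in HE (-0.249). Leaving out 1 library gave, from -4 to 1 wkpp in LE, -0.087 to 0.182 for BCKDHA, -0.381 to 0.038 for BCKDK and -0.228 to 0.153 for PCCA. From 1 to 16 wkpp it gave -0.151 to 0.604 for BCAT1, -0.322 to 0.022 for BCAT2 and -0.384 to 0.434 for BCKDHB in HE, and -0.165 to 0.011 for IVD in LE. For LE minus HE it gave -0.205 to 0.214 for BCKDK at 1 wkpp, and -0.307 to 0.048 for BCKDHA, -0.179 to 0.328 for BCKDK and -0.062 to 0.25 for MCCC1 at 16 wkpp. For the difference of changes it gave -0.0087 to 0.746 for BCAT1, -0.268 to 0.17 for BCAT2, -0.661 to 0.156 for BCKDHB, -0.176 to 0.367 for BCKDK, -0.018 to 0.366 for IVD and -0.306 to 0.079 for PCCA. The size factors of single tables could not be run for the difference of changes. BCAT1 had as few as 4 exonic reads in a library, which limits the precision of its values.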
